A study of Mus musculus with 6 samples.

Results

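The 9 genes described here carry the epithelial sodium channel (ENaC) and the aldosterone response of the kidney collecting duct. They were taken by symbol (Scnn1a, Scnn1b, Scnn1g, Nr3c2, Hsd11b2, Sgk1, Nedd4l, Atp1b1 and Fxyd4) from the 55367 gene symbols that each of the 6 libraries lists. All 9 were found in all 6 libraries, and all 9 were among the 14862 genes that reached an FPKM of 1 in at least 2 libraries and entered the tests. FPKM is a read number scaled to gene length and to library size.

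RNA-seq was run on mouse kidney cells that bind DBA, a plant lectin with affinity for collecting duct epithelium, in 2 libraries of each of 3 groups, all taken at the same age (Day115 in the labels). WT mice were Pkd1+/+ and received saline. ADPKD mice modelled autosomal dominant polycystic kidney disease as Pkd1-/- after tamoxifen in male Pkd1 fl/fl;Cre/Esr1+ animals, and also received saline. ADPKD+MMPP mice had the same genotype and received MMPP, a melanin-like nanoparticle that carries polyethylene glycol and chelated manganese, by repeated intravenous injection. The study asked how MMPP acts on cyst cells and on the cAMP-activated transcription factor CREB. There was no WT group with MMPP, the sources used here do not say which promoter drives Cre, and the labels name both DBA-positive cells and whole kidney as the source of RNA. The labels do not say whether replicate libraries came from separate animals, so p-values measure the spread between these libraries, which may be technical.

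Aldosterone is a steroid hormone that enters principal cells of the collecting duct and binds the mineralocorticoid receptor, which then acts as a transcription factor. Its best known early target is the kinase SGK1, which restrains the ubiquitin ligase NEDD4L and so keeps ENaC in the apical membrane. Sodium that enters through ENaC leaves the cell through the basolateral sodium pump, and salt and water uptake of the duct depends on the pair.

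Sgk1 carried the largest changes after MMPP among the 9 genes, and the sequences of 2 of its 6 start regions are shown. RefSeq start regions (GRCm38.p6) were taken for 6 of the 9 genes, with 11 windows of 250 bases before a start, 6 of them at Sgk1. They were searched on both strands for the cAMP response element TGACGTCA, for its shorter core TGACG, and for the steroid receptor hexamer TGTTCT. Capitals mark the matches to the core and to the hexamer, of which the opposite strand reads AGAACA.

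Sgk1, chr10:21993640-21993889, plus strand: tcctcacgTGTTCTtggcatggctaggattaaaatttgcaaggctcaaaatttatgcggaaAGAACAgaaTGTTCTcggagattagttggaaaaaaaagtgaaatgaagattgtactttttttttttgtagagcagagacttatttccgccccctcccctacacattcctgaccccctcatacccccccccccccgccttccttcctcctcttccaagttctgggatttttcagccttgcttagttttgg
Sgk1, chr10:21978422-21978671, plus strand: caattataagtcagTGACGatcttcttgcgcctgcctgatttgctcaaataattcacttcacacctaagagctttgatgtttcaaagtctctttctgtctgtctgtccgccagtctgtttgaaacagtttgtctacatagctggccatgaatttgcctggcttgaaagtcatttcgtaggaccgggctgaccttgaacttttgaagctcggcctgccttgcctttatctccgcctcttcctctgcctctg

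The 2 windows shown are the one with the most hexamers and the only one with the core. Other Sgk1 windows held a single hexamer or no match. The first window held 3 hexamers. The last pair formed the inverted repeat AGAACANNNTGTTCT, which began at position -189 from the start and occurred in 3 of 32851 RefSeq windows of the same length. The search for this repeat was added after the hexamers had been seen. The second window held the core TGACG, which was found in no other window of these genes and in 17.8% of all windows. The full element TGACGTCA was in 0 of the 11 windows and in 1.55% of all windows, and the hexamer was in 3 windows, all at Sgk1, and in 16.1% of all windows. Scnn1a and Hsd11b2 had no entry in the table used, and Nedd4l was left out of the search. These matches describe letters in the windows and not binding.

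The libraries differed in ways that touch the values below. WT and ADPKD libraries held 30.6 to 33.1 M reads and ADPKD+MMPP libraries 10.9 to 11.8 M, as read from the steps of low FPKM values. Odd read numbers made up 37.2% to 40.0% of low counts in the former and 6.33% to 6.85% in the latter. Why the ADPKD+MMPP libraries differ in this was not tested. Pkd1, the deleted gene, stood at 17.7 and 17.2 FPKM in WT, at 7.64 and 8.91 in ADPKD and at 4.34 and 3.99 in ADPKD+MMPP, where the same difference between libraries applies. Markers of collecting duct principal cells were present in all libraries, with Aqp2 between 677 and 3555 FPKM, while the vasopressin receptor Avpr2 was at 0 in ADPKD replicate 2 and at most 0.0587 FPKM in the others. Summed markers of the proximal tubule were 552 to 749 FPKM in WT, 1400 to 1918 in ADPKD and 21155 to 22340 in ADPKD+MMPP, with 0 of 10 markers at 0 in any library. Of these sums, Gpx3 held 378 and 396 FPKM in WT and 1273.5 and 1300.4 in ADPKD. In ADPKD against WT, 4 of the 10 were called higher and 1 lower. In ADPKD+MMPP, Kap stood at 12822 and 12116 FPKM and Gpx3 at 8789 and 8321. Against ADPKD, 8 of the 10 were called higher there and 0 lower. Summed macrophage and leukocyte markers were 68.5 to 69.2 FPKM in WT, 527 to 635 in ADPKD and 1160 to 1213 in ADPKD+MMPP. In ADPKD+MMPP against ADPKD, 4 of the 8 were called higher (C1qa, C1qb, C1qc and Lyz2). The other 4 were called lower (Cd68, Adgre1, Ptprc and Csf1r), and centring called 2 higher and 2 lower. In ADPKD against WT, 8 of 8 were called higher. Intercalated cell (7 of 7), endothelial (4 of 4) and podocyte markers (3 of 3) were called lower there, with podocyte sums of 782 to 1067 FPKM in WT and 66.7 to 174 in ADPKD. Of 5 fibroblast markers, 4 were called higher and 1 lower in that comparison, with a median log2 fold change of 3.57. Of 7 markers of the thick ascending limb and distal convoluted tubule, 1 was called higher and 4 lower. The part of these cells in the results below was not tested. Calling and centring are defined below. Of all tested genes, 14.2% were called higher and 12.5% lower in ADPKD against WT, and 27.9% and 43.0% in ADPKD+MMPP against ADPKD.

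The change after MMPP moved with the share of the exon bases of a gene that lie in exactly 1 annotated transcript. Among protein-coding genes with 1 transcript the median log2 fold change of ADPKD+MMPP against ADPKD was 1.10 over 1308 genes, while among genes with under 20% of such bases it was -1.61 over 1748 genes. In ADPKD against WT the same medians were 0.03 and -0.00. This belonged to 1 group of libraries, so it and the treatment cannot be told apart. Changes of the 9 genes after MMPP are therefore given beside a centred value, for which each library was centred within 20 bins of that share over protein-coding genes. The shares differed widely among the 9 genes. Scnn1g and Hsd11b2 had 1 transcript and a share of 100%, followed by Atp1b1 at 76.3%, Nedd4l at 65.7%, Sgk1 at 30.1%, Fxyd4 at 20.1%, Nr3c2 at 12.3%, Scnn1b at 7.37% and Scnn1a at 6.68%.

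In ADPKD against WT, Sgk1 fell and Atp1b1 rose, and the other 7 genes did not pass the test. Genes were called where limma on log2(FPKM + 1) gave an unadjusted P under 0.05 and a fold of 1.5 or more. Calls covered 14.2% of all tested genes on the higher side and 12.5% on the lower side, so 1 and 1 of 9 did not exceed that background. Without ADPKD replicate 1 the count was 1 higher and 6 lower, and without WT replicate 2 Sgk1 alone was called. In ADPKD+MMPP against ADPKD, Atp1b1, Scnn1g and Hsd11b2 rose and Scnn1a, Scnn1b, Nr3c2, Sgk1 and Nedd4l fell, while Fxyd4 did not pass. These 3 and 5 of 9 genes stand against 27.9% of all tested genes called higher and 43.0% called lower. Centring called 3 higher (Atp1b1, Fxyd4 and Scnn1a) and 2 lower (Sgk1 and Nedd4l), against 33.8% and 24.4% of the protein-coding genes tested, so that 3 of the 8 calls stayed in their direction. In ADPKD+MMPP against WT, 2 genes rose and 5 fell, against 30.1% and 43.8% of all tested genes. The median log2 fold changes over all tested genes were 0.03, -0.36 and -0.36 in the 3 comparisons, and those over the 9 genes were -0.13, -1.26 and -0.70. With 2 libraries a group, the groups did not overlap in 67.0%, 87.8% and 91.9% of all tested genes in the 3 comparisons. Of the 9 genes, 4, 8 and 9 did not overlap. The comparisons share libraries, so their values are not independent of each other.

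**Figure D1:**
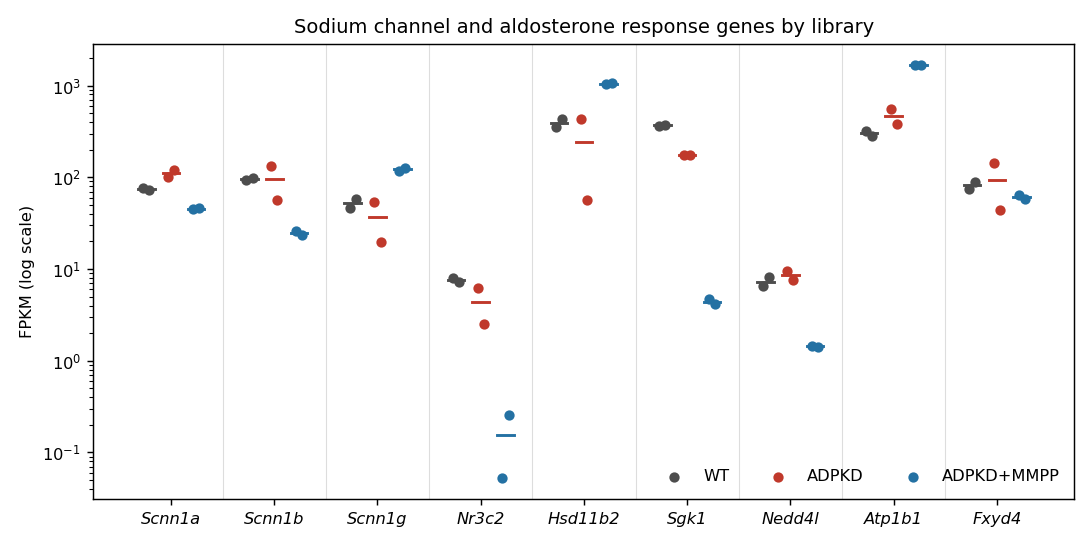
FPKM of the 9 genes on a log axis, with 1 point per library and a line at the mean of the 2 libraries of a group. Sgk1 stands at 363 and 375 in WT and at 4.66 and 4.11 in ADPKD+MMPP, and the ADPKD points of Hsd11b2 lie far apart, at 432 and 56.4.

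As deposited, the 3 ENaC subunits, which assemble into 1 channel, did not change together. Centred, Scnn1a, Scnn1b and Scnn1g changed by 0.85, 0.35 and 0.71 on the log2 scale in ADPKD+MMPP against ADPKD. Their intervals overlapped, and Scnn1a alone passed. Against WT, the centred values were 1.27, 0.085 and -0.084. Scnn1a, the alpha subunit (chr6:125320659-125344943), was at 76.2 and 72.8 FPKM in WT, 99.9 and 121 in ADPKD and 45.0 and 45.7 in ADPKD+MMPP. The 3 groups did not overlap, with ADPKD highest and ADPKD+MMPP lowest. The rise in ADPKD had a log2 fold change of 0.55 ± 0.14 (SE), which is 1.47-fold and thus under the fold limit, with a limma adjusted p of 0.0335. Against ADPKD, Scnn1a in ADPKD+MMPP fell by 1.26 ± 0.14 on the log2 scale (adjusted p = 0.000409). The centred value was 0.85 higher instead, with a 95% confidence interval of 0.52 to 1.18, so the direction for this gene with 7 transcripts turned.

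Scnn1b, the beta subunit (chr7:121865038-121918514), was at 93.3 and 97.3 FPKM in WT, 133 and 56.7 in ADPKD and 26.2 and 23.7 in ADPKD+MMPP. The ADPKD libraries lay on either side of WT, and the log2 fold change of -0.13 had a 95% confidence interval of -1.07 to 0.81. Scnn1b in ADPKD+MMPP was 3.39-fold lower than in ADPKD (log2 fold change -1.76 ± 0.38 SE, limma adjusted p = 0.00674) and 3.71-fold lower than in WT. The former was -1.15 without ADPKD replicate 1 and -2.37 without ADPKD replicate 2. Its centred values were 0.35 against ADPKD and 0.085 against WT, neither of which passed.

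Scnn1g, the gamma subunit, lies on the same strand as Scnn1b (chr7:121734479-121768475) and ends 96562 bases before it. It was at 46.5 and 57.6 FPKM in WT, 53.5 and 19.6 in ADPKD and 118 and 125 in ADPKD+MMPP. As deposited, both ADPKD+MMPP libraries lay above the other 4, the reverse of what its neighbour showed. The rise against ADPKD was 3.66-fold (log2 fold change 1.87 ± 0.44 SE, limma adjusted p = 0.00951) and that against WT 2.32-fold (1.22 ± 0.44 SE, limma adjusted p = 0.0437), and the latter call held in 7 of 16 other settings. Against ADPKD, the rise was 5.94-fold without ADPKD replicate 1 and 2.25-fold without ADPKD replicate 2. Centred, the changes were 0.71, with an interval of -0.27 to 1.69, and -0.084, with an interval of -1.06 to 0.89, and did not pass. In ADPKD against WT the fall of 0.65 on the log2 scale did not pass (interval -1.74 to 0.44). It rests on ADPKD replicate 2, without which the value was 0.046.

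The subunits were also set against each other within each library. Scnn1a made up 35.3% and 32.0% of the summed FPKM of the 3 subunits in WT, 34.9% and 61.2% in ADPKD, and 23.8% and 23.5% in ADPKD+MMPP. Scnn1g made up 21.5% and 25.3% in WT, 18.7% and 9.98% in ADPKD, and 62.4% and 64.3% in ADPKD+MMPP. ADPKD replicate 1 was close to WT, ADPKD replicate 2 was led by the alpha subunit, and both ADPKD+MMPP libraries were led by the gamma subunit. The summed FPKM was less spread, between 189 in ADPKD+MMPP replicate 1 and 286 in ADPKD replicate 1. Ratios between subunits within a library do not depend on its depth, but they do depend on how reads in shared exons were counted, which differs between these genes.

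**Figure D2:**
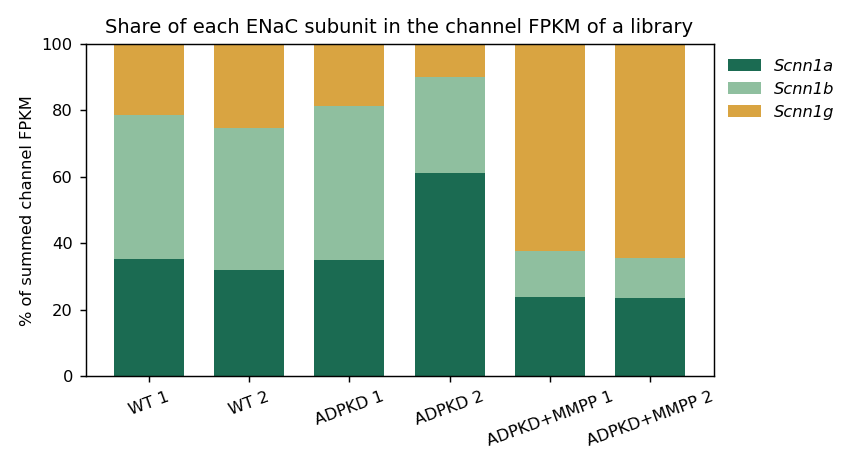
Share of Scnn1a, Scnn1b and Scnn1g in their summed FPKM, in percent, with 1 bar per library. Scnn1g takes 62.4% and 64.3% in ADPKD+MMPP and at most 25.3% in the other 4 libraries, and Scnn1a takes 61.2% in ADPKD replicate 2.

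Nr3c2 encodes the mineralocorticoid receptor (chr8:76899442-77245012). It was at 7.96 and 7.27 FPKM in WT, 6.22 and 2.50 in ADPKD and 0.0523 and 0.255 in ADPKD+MMPP. The 3 groups did not overlap, and the ADPKD+MMPP values stand for 4 and 18 reads, against 518 to 1576 reads in the other libraries. The fall in ADPKD of 0.78 on the log2 scale did not pass (limma adjusted p = 0.146), but it passed at an unadjusted P under 0.05 with libraries scaled to a common sum (-0.86), by median ratio (-0.82) or by quantiles (-0.83), and when centred (-0.78). It was -1.30 and called without ADPKD replicate 1, and -0.25 and not called without ADPKD replicate 2. In ADPKD+MMPP, Nr3c2 was 2.13 ± 0.34 (SE) lower on the log2 scale than in ADPKD (limma adjusted p = 0.00195). The centred fall was 0.21 against ADPKD, with an interval of -0.96 to 0.54, and 0.99 against WT, with an interval of -1.75 to -0.24. Both scales use log2(FPKM + 1), which understates a fall to values under 1 FPKM. With a pseudocount of 0.1 and no centring, the log2 fold change against ADPKD was -4.12. Of its exon bases, 3.82% are shared with a gene on the opposite strand.

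Hsd11b2 encodes the enzyme that inactivates glucocorticoids and so leaves the receptor to aldosterone (chr8:105518755-105523988). It was at 357 and 433 FPKM in WT, 432 and 56.4 in ADPKD and 1029 and 1064 in ADPKD+MMPP. ADPKD replicate 1 lay within the WT range and ADPKD replicate 2 far below all others, which is the widest spread between replicates among the 9 genes. The difference between ADPKD and WT therefore did not pass (log2 fold change -1.32, interval -3.50 to 0.85), and was 0.14 without ADPKD replicate 2 and -2.78 without ADPKD replicate 1. The rise after MMPP passed against ADPKD (2.73 ± 0.88 SE, limma adjusted p = 0.0304) and was 1.27 without ADPKD replicate 2 and 4.19 without ADPKD replicate 1. This call held in 12 of 16 other settings. Centred, it was 1.57, with an interval of -0.42 to 3.56, and did not pass. Against WT, the value was 1.41 (interval -0.76 to 3.59) and did not pass, with both ADPKD+MMPP libraries above both WT libraries. The spread behind this interval is pooled over the 3 groups and so includes that between the ADPKD replicates. Fitted on WT and ADPKD+MMPP alone, Hsd11b2 was called higher, and such a call was made in 3 of 16 other settings. Centred, the value against WT was 0.11 and did not pass.

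ADPKD replicate 2 stood apart from ADPKD replicate 1 in other genes as well. Aqp2, the vasopressin-regulated water channel, was at 1392 FPKM in ADPKD replicate 1 and 677 in ADPKD replicate 2, and Aqp3, a basolateral water channel, at 309 and 80.6. Summed principal cell markers were 1745 and 782 FPKM in these libraries, against 1526 to 2121 in WT and 4188 to 4202 in ADPKD+MMPP. Most of these sums was Aqp2, at 3555 and 3499 FPKM in ADPKD+MMPP. Of the 5 tested markers, 2 were called higher (Aqp2 and Aqp3) and 2 lower (Aqp4 and Elf5) in ADPKD+MMPP against ADPKD. Centring called 0 higher and 1 lower. Markers of other segments were also lower in replicate 2 than in replicate 1, with sums of 619 and 204 FPKM for thick ascending limb and distal convoluted tubule, 174 and 66.7 for podocytes, 48.1 and 25.5 for intercalated cells and 1918 and 1400 for proximal tubule. In bulk samples, fewer cells of a type and less RNA per cell cannot be told apart. Scnn1b, Scnn1g, Nr3c2, Hsd11b2 and Fxyd4 were lower in ADPKD replicate 2 than in replicate 1, by 2.35-fold to 7.66-fold, while Scnn1a was 1.21-fold higher and Sgk1 1.02-fold higher.

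Scnn1g, Hsd11b2 and Aqp2 each have 1 annotated transcript, so ratios among them do not carry the difference in transcript structure. Scnn1g per 100 FPKM of Aqp2 was 3.67 and 3.24 in WT, 3.84 and 2.90 in ADPKD, and 3.32 and 3.58 in ADPKD+MMPP. The 3 groups overlapped on this scale. Hsd11b2 per 100 FPKM of Aqp2 was 28.2 and 24.4 in WT, 31.0 and 8.33 in ADPKD, and 28.9 and 30.4 in ADPKD+MMPP, and ADPKD replicate 2 was the exception.

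Sgk1 encodes the serum and glucocorticoid regulated kinase (chr10:21882184-21999903), which inhibits NEDD4L by phosphorylation. It was at 363 and 375 FPKM in WT, 173 and 176 in ADPKD, and 4.66 and 4.11 in ADPKD+MMPP. The groups did not overlap, with WT highest and ADPKD+MMPP lowest. Sgk1 in ADPKD stood at 0.475 times its WT level (log2 fold change -1.07 ± 0.12 SE, limma adjusted p = 0.00439), and it was the 1 gene of the 9 that also passed at an adjusted p under 0.05 there. The fall ranged from 1.05 to 1.28 on the log2 scale over 16 other settings and passed in all 16.

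In ADPKD+MMPP, Sgk1 stood at 270 and 220 reads, against 27719 to 56896 reads in the other libraries. It was 32.6-fold lower than in ADPKD (log2 fold change -5.03 ± 0.12 SE, limma adjusted p = 1.95e-05) and 68.7-fold lower than in WT (limma adjusted p = 1.47e-05). Centred, the log2 fold changes were -3.54 against ADPKD, with an interval of -3.87 to -3.22, and -4.69 against WT. The direction and the call thus held under centring, with a smaller fall. Sgk1 has 13 annotated transcripts and 30.1% of its exon bases in 1 of them.

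Nedd4l, the ubiquitin ligase that removes ENaC from the membrane, was at 6.49 and 8.09 FPKM in WT, 9.60 and 7.66 in ADPKD and 1.46 and 1.41 in ADPKD+MMPP. WT and ADPKD overlapped, with a log2 fold change of 0.22 (interval -0.19 to 0.62). Both ADPKD+MMPP libraries lay below the other 4, at 304 and 271 reads. The fall was 1.98 ± 0.16 (SE) on the log2 scale against ADPKD (limma adjusted p = 0.000149) and 1.76 against WT (limma adjusted p = 0.000193). Centred, it was 2.12 and 1.94 and passed in both. Nedd4l and Sgk1 were the 2 genes of the 9 called lower in ADPKD+MMPP against both other groups under all 16 other settings as well as in the main fit. Nr3c2 was lower in all 16 settings too, but against ADPKD it was called in 15 of them.

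Atp1b1 encodes a beta subunit of the sodium pump (chr1:164437109-164458355). It was at 321 and 282 FPKM in WT, 551 and 382 in ADPKD and 1666 and 1691 in ADPKD+MMPP, and the groups did not overlap. The rise in ADPKD was 1.52-fold (log2 fold change 0.61 ± 0.20 SE, unadjusted P = 0.0233 and adjusted p = 0.0727 in limma). This call was lost in 6 of 16 other settings, among them scaling to a common sum (0.52), by median ratio (0.54) or by quantiles (0.49). It was also lost without ADPKD replicate 1 (0.34) and without either WT replicate, and was 0.87 without ADPKD replicate 2. The rise after MMPP was 3.65-fold against ADPKD (1.87 ± 0.20 SE, limma adjusted p = 0.000376) and 5.56-fold against WT (limma adjusted p = 0.000116). Centred, the log2 fold changes were 1.39 and 1.98, and both passed. Of the exon bases of Atp1b1, 18.7% are shared with Nme7 on the opposite strand, and the strand setting of the counting is not given in the sources used here.

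Fxyd4, a collecting duct modulator of the pump (chr6:117933559-117937692), was at 74.9 and 88.6 FPKM in WT, 143 and 43.6 in ADPKD and 63.4 and 57.5 in ADPKD+MMPP. The ADPKD libraries enclosed all others. No comparison passed, with log2 fold changes of -0.04 in ADPKD against WT (interval -1.33 to 1.25), -0.39 in ADPKD+MMPP against ADPKD (interval -1.68 to 0.90) and -0.43 against WT (interval -1.72 to 0.86). Centred, Fxyd4 was higher after MMPP, by 1.22 against ADPKD and by 1.19 against WT, which passed at an unadjusted P under 0.05, with adjusted p of 0.0576 and 0.0585 in limma.

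**Figure D3:**
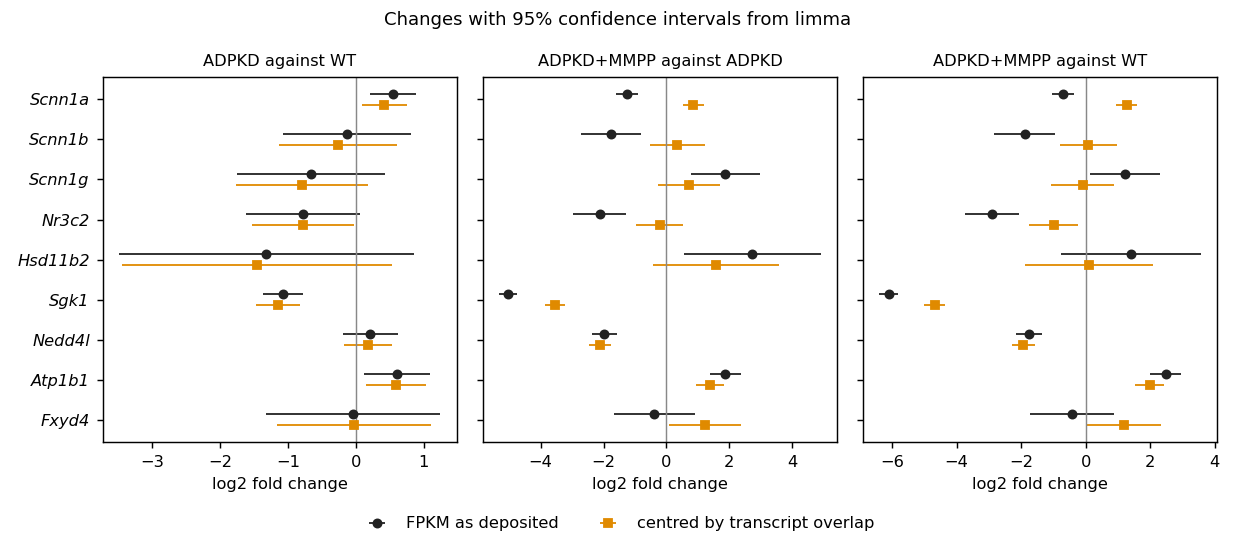
Log2 fold changes of the 9 genes in the 3 comparisons, with 95% confidence intervals from limma, for FPKM as deposited (circles) and for values centred by transcript overlap (squares). Both versions lie close together in ADPKD against WT, while after MMPP Scnn1a moves from -1.26 to 0.85 and Sgk1 stays low, at -5.03 and -3.54.

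**Figure D4:**
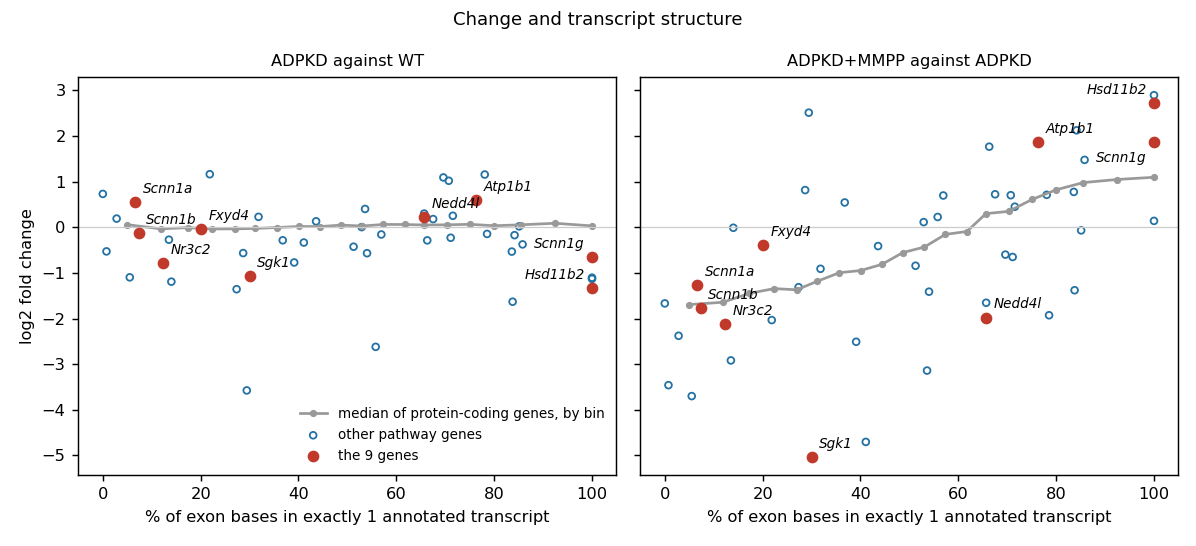
Log2 fold change against the percentage of exon bases in exactly 1 annotated transcript for the 9 genes (filled), the other pathway genes (open) and the median of protein-coding genes in 20 bins of that share (line). After MMPP the line climbs from -1.69 to 1.10, with Sgk1 and Nedd4l far below it, while in ADPKD against WT it stays near 0.

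The levels of the 9 genes can be ordered, since FPKM is given per length. In WT the order was Hsd11b2, Sgk1, Atp1b1, Scnn1b, Fxyd4, Scnn1a, Scnn1g, Nr3c2 and Nedd4l, from 395 down to 7.29 FPKM. Hsd11b2 and Sgk1, Fxyd4 and Scnn1a, and Nr3c2 and Nedd4l overlapped as neighbours. In ADPKD, Atp1b1 led at 467 ± 119 FPKM (SD, n = 2) and overlapped with Hsd11b2, which in turn overlapped with Sgk1 at 175 ± 2.37. In ADPKD+MMPP, Atp1b1 at 1678 ± 17.7 was followed by Hsd11b2 at 1047 ± 24.9 and Scnn1g at 122 ± 5.12, and no neighbours overlapped. Sgk1 stood in the seventh place there, at 4.39 ± 0.39 FPKM. The order in ADPKD+MMPP is that of the deposited values, which moved with transcript structure, and centring turned the changes of Scnn1a, Scnn1b and Fxyd4.

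The genes with profiles nearest to each ENaC subunit were sought by Euclidean distance over the 6 libraries. Candidates were the 9439 genes with a mean of at least 5 FPKM in at least 1 group. Profiles were deposited values as log2(FPKM + 1), less the mean of each gene, and were not centred by transcript overlap. For Scnn1g the nearest was Aqp2, at a distance of 0.30, followed by Tmem150c and Svip. Scnn1a was nearest to Ube2j1, Spin1 and Epb41l1, at distances of 0.060 to 0.13, and Scnn1b to Parp9, Pigq and Rab11fip3, at 0.32 to 0.36. The subunits thus shared none of their 3 nearest genes. All these profiles share the same 6 libraries and the step in transcript structure between them.

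Around these genes, 38 other genes of the pathway were listed, of which 37 were tested. In ADPKD against WT, 5 rose and 7 fell, which is 13.5% and 18.9% of them against 14.2% and 12.5% of all tested genes. All 5 that rose belonged to the 8 proteases that cleave ENaC subunits and their inhibitors. Among them Prss8 (prostasin, which activates ENaC) went from 40.6 and 41.6 FPKM in WT to 74.9 and 63.4 in ADPKD (log2 fold change 0.73, limma adjusted p = 0.0433). St14 (matriptase), Tmprss2 and the Kunitz-type inhibitors Spint1 and Spint2 rose by 1.02 to 1.16 on the log2 scale. Klk1 (tissue kallikrein) and Serpine2 (protease nexin) fell, by 3.58 and 1.63. Furin, an activating protease, did not pass (0.40). Centring also gave 5 higher and 2 lower in this list.

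Among 11 genes that respond to mineralocorticoid or glucocorticoid hormones, 4 fell and 0 rose in ADPKD against WT, where 12.5% and 14.2% of all tested genes were called, with a median log2 fold change of -0.53 against 0.03 over all tested genes. Per1, a clock gene and steroid target, went from 193 and 177 FPKM in WT to 93.0 and 79.5 in ADPKD (log2 fold change -1.10, limma adjusted p = 0.00512). Edn1 (endothelin) fell by 1.10, Ndrg2 by 1.36 and Zbtb16 by 2.62, and Zbtb16 was uneven in ADPKD, at 1.49 and 11.1 FPKM. Tsc22d3, which encodes the glucocorticoid-induced leucine zipper, was at 18.8 and 22.2 FPKM in WT and 10.6 and 21.0 in ADPKD and did not pass. The 10 genes of the dissociation and heat shock list also moved, with 6 lower and 0 higher in ADPKD against WT, and 2 lower and 7 higher in ADPKD+MMPP against ADPKD. In the latter comparison, 43.0% of all tested genes were called lower and 27.9% higher. The part of this list in the changes of Sgk1 and Per1, which respond to stress too, was not tested.

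After MMPP, 10 of the 37 genes rose and 17 fell against ADPKD, beside 27.9% and 43.0% of all tested genes. Against WT, 8 rose and 19 fell, beside 30.1% and 43.8% of all tested genes. Centring gave 10 higher and 13 lower against ADPKD, beside 33.8% and 24.4% of protein-coding genes, and 13 and 15 against WT, beside 35.8% and 26.8%. On the deposited scale, the widest falls among genes with at least 5 FPKM in a group were those of Nedd4, a ubiquitin ligase related to NEDD4L, Per1, and Wnk4, a kinase that regulates salt transport. Nedd4 went from 40.8 and 33.0 FPKM in ADPKD to 0.309 and 0.596, with a log2 fold change of -4.70 and a centred value of -3.48. Per1 went from 93.0 and 79.5 to 5.66 and 5.73, with -3.70 and -1.59, and Wnk4 from 31.9 and 18.9 to 1.49 and 1.17, with -3.46 and -1.35. The shares of exon bases in 1 transcript were 41.1% for Nedd4, 5.51% for Per1 and 0.747% for Wnk4. Centred, Fxyd5 (-2.78), Serpine2 (-2.49), Furin (-2.42) and Usp10 (-1.80) fell more than Per1 and Wnk4. Kcnj1, the ROMK potassium channel that secretes potassium in exchange for sodium, was at 42.1 and 31.2 FPKM in WT, 31.2 and 7.26 in ADPKD and 14.9 and 15.5 in ADPKD+MMPP, and passed in no comparison as deposited. Its share was 14.01%, and centred it was 1.91 higher in ADPKD+MMPP than in ADPKD (limma adjusted p = 0.0224). The proximal tubule also expresses Atp1b1, its markers rose in the same libraries, and the part of those cells in the rise of Atp1b1 was not tested.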

How the data were processed

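RNA of DBA-positive kidney cells was measured in 6 libraries. Per the labels and methods, the authors aligned reads to GRCm38 with HISAT2 2.1.0, counted them with featureCounts 1.6.0 and deposited FPKM; how FPKM was made from counts and the annotation used are not given in the sources used here. Symbols were matched to GENCODE vM21 (53253 of 55367) for positions and transcripts. Depth was read from steps of FPKM times length, within 0.1 reads of a whole number, which held for 98.9% to 99.3% of low values; with 3 reads or fewer a gene is at the floor.

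The 14862 genes that reached an FPKM of 1 in 2 or more libraries were fitted with limma 3.58.1 (R 4.3.3) as log2(FPKM + 1), all 6 libraries together, with Benjamini-Hochberg adjustment over all of them. The pseudocount of 1 understates changes of low genes. The study's thresholds, a fold of 1.5 and P under 0.05, were kept. The limma fit and its calls were tested on simulated data for ADPKD against WT. The reading of depth, the centring and the search of start regions were not.

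The 9 members, the gene lists and the centring by transcript overlap were chosen with earlier results of these data known. Named are the members, the 3 called pathway genes with the largest change and at least 5 FPKM per comparison, Tsc22d3, Prss8 and Kcnj1, the 3 genes nearest to each ENaC subunit, and further list members chosen after their values were seen. A gene chosen by this rule is not reported here. Alternatives changed the pseudocount (0.1), the filter (none, or FPKM of 5), the scaling, the trend, the groups fitted, a replicate block, the fold (2), the adjustment and each replicate in turn. Fits over genes with 1 transcript were added after seeing the data.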

Additional observations from a re-analysis of the deposited data

How the results depend on the processing

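Calls of the 9 genes numbered 2, 8 and 7 in ADPKD against WT, ADPKD+MMPP against ADPKD and ADPKD+MMPP against WT. In ADPKD against WT, leaving out 1 library gave 1 to 7 calls, with 7 without ADPKD replicate 1 and 1 without WT replicate 2, and requiring a fold of 2 or an adjusted p under 0.05 each left 1, Sgk1. Centring by transcript overlap gave 5 calls in ADPKD+MMPP against ADPKD, of which Atp1b1, Sgk1 and Nedd4l were among the 8 in the same direction, and 6 against WT, of which these 3 and Nr3c2 were among the 7. It turned Scnn1a (0.85 and 1.27), Scnn1b (0.35 and 0.085) and Fxyd4 (1.22 and 1.19) to higher in these 2 comparisons, and Scnn1g to -0.084 against WT. Over protein-coding genes with 1 transcript, Scnn1g was also turned against WT (-0.086), while over such genes of any biotype it was 1.45 higher. In ADPKD against WT, values without ADPKD replicate 1 and without ADPKD replicate 2 were -0.74 and 0.48 for Scnn1b, -1.35 and 0.046 for Scnn1g, -2.78 and 0.14 for Hsd11b2, and -0.89 and 0.80 for Fxyd4, with the sign turned without ADPKD replicate 2. They were -1.30 and -0.25 for Nr3c2 and 0.34 and 0.87 for Atp1b1. Fxyd4 also turned without WT replicate 2 (0.079) and, after MMPP against ADPKD, without ADPKD replicate 1 (0.46, against -1.23 without ADPKD replicate 2). The cause of these changes was not tested. In leave-one-out fits the lone library of a group is assumed to vary like the others, and these fits gave 7 to 9 calls after MMPP against ADPKD and 6 to 8 against WT. With the replicate number as a block, 2, 8 and 7 genes were called. Deviations of same-numbered libraries correlated at 0.13, -0.008 and 0.014. With 2 libraries a group, such values cannot exclude that the numbers pair the samples. Quantile scaling moved the median of all genes after MMPP from -0.36 to 0.10 and the calls from 4143 higher and 6397 lower to 5363 and 4577, while the 9 genes kept 3 higher and 5 lower. Depth limits Nr3c2 after MMPP, at 4 and 18 reads.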
